A study of Mus musculus with 12 samples.

Results

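The genes described here are 10 markers of macrophages, C1qa, C1qb, C1qc, Csf1r, Adgre1, Cd68, Mrc1, Cd163, Lyve1 and F13a1. They were taken by symbol, matched to their Ensembl identifiers, from a count table of 56065 mouse genes. All 10 were present, and all 10 were among the 17893 genes that passed the filter on low counts. They were followed in 12 submandibular glands (SMGs), 3 from each of 4 groups of mice aged 8 weeks. The groups were wild-type C57BL/6J females, wild-type C57BL/6J males, and females and males labelled C57BL/6J-Pou2f3 knockout. The knockout animals were of a Jackson Laboratory line that lacks the transcription factor defining tuft cells (TCs), the rare chemosensory cells of epithelia. The sources do not say that wild-type mice were littermates of the knockout mice. Each library came from SMG tissue of 1 mouse, so the values mix the gland's cell types. Fewer cells of a type cannot be told apart from less RNA per cell.

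Macrophages are resident phagocytes that live in the connective tissue of salivary glands, beside ducts, vessels and nerves. They depend on signals through the receptor encoded by Csf1r, clear dying cells and debris, and make most of the C1q that starts the classical complement pathway. Tissue-resident macrophages of the interstitium typically carry scavenger receptors such as CD163 and the mannose receptor encoded by Mrc1, and those near vessels often carry LYVE1.

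Total counts per library ranged from 47032175 to 67882207, and the TMM scaling factors ran from 0.625 in a wild-type female to 1.45 in a wild-type male. Levels are given as CPM, that is, counts scaled to a common library size with those factors. Pou2f3 did not check the labels at this depth, since it had 0 to 10 counts in the 6 wild-type libraries and 0 to 3 counts in the 6 knockout libraries. The 6 acinar markers summed to between 973 and 3960 CPM in every library, so acinar transcripts were present. Among them, Bpifa2 ran from 0.0942 CPM in knockout male 3 to 2030 CPM in knockout male 2. It thus made up most of the acinar sum of 3010 CPM in knockout male 2. Dcpp1 ran from 0.0195 CPM in wild-type female 1 to 193 CPM in wild-type male 3. Of 16 further genes used across macrophages, all passed the low-count filter, while 5 of 6 neutrophil markers had at most 3 counts in any library. Lyve1 is also made by lymphatic endothelium and F13a1 also by platelets, so neither of those 2 genes marks macrophages alone. How specific the other members are in this gland was not tested.

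The 3 C1q genes lie side by side on chromosome 4 (GRCm39), all on the minus strand, with C1qb at 136606009 to 136613511, C1qc at 136616466 to 136620376 and C1qa at 136623223 to 136626161. The sequences upstream of the C1q genes are shown because these genes varied together more closely than any other members, and those of Mrc1 and Cd163 because these formed another close pair. Each is the 250 bases before the start of the Ensembl canonical transcript in GRCm39, written 5′ to 3′ on the gene's strand. Capitals mark GAGGAA or its reverse complement TTCCTC, the core bound by PU.1, the transcription factor that macrophages need.

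C1qa (chr4:136626162-136626411, minus strand): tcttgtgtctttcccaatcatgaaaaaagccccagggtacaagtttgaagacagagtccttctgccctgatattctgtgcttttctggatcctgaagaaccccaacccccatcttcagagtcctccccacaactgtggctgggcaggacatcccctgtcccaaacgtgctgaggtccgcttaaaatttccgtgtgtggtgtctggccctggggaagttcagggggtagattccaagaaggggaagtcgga
C1qc (chr4:136620377-136620626, minus strand): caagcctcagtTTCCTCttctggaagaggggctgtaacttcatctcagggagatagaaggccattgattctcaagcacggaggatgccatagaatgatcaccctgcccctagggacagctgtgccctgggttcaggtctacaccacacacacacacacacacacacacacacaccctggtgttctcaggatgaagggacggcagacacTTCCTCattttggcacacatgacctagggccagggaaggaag
C1qb (chr4:136613512-136613761, minus strand): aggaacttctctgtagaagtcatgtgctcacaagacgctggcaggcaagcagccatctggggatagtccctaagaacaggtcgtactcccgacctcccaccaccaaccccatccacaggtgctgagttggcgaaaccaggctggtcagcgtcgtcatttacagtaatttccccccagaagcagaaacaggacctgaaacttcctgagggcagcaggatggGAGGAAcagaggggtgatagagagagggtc
Mrc1 (chr2:14233901-14234150, plus strand): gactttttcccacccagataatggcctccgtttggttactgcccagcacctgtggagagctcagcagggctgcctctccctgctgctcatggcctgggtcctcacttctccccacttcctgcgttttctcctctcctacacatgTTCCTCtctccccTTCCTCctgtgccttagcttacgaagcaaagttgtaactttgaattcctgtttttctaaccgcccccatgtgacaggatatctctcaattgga
Cd163 (chr6:124281356-124281605, plus strand): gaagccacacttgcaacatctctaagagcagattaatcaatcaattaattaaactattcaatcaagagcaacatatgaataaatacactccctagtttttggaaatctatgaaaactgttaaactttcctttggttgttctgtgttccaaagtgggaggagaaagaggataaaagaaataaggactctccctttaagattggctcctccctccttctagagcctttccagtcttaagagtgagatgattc

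C1qb held 1 such match, 30 bases before the start, C1qc held 2 and Mrc1 held 2. C1qa and Cd163 held none, so no capitals appear in them. Adgre1 held 3 matches and Cd68 held 1, and Lyve1 and F13a1 held none. The 250-base windows of 5 of the 9 members searched thus held GAGGAA on either strand, against 22.9% of 21770 windows of the same length upstream of genes. TGCTGA, a core of sites for MAF factors, was present in 3 of the 9 (C1qa, C1qb and Mrc1) against 14.8% of all windows. The AP-1 site TGANTCA was found in 1 (Cd68) against 6.17%. Neither the C/EBP pattern TTGCNNAA, present in 9.34% of all windows, nor the M-box TCATGTGA, present in 0.767%, was found in any of the 9. The window of Csf1r was not analysed here. A match is a description of these letters and not a bound site.

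Compared per kilobase of exon, C1qa had the highest level of the members, with a median of 8.0 CPM per kb over the 12 libraries. C1qc followed at 4.16, Csf1r at 3.27, C1qb at 2.61, Cd68 at 2.06, Adgre1 at 1.90, Mrc1 at 1.78, F13a1 at 1.47, Cd163 at 0.875 and Lyve1 at 0.304 CPM per kb. This order depends on the exon lengths used, which were 1.61 kb for C1qa and 6.25 kb for C1qb. In CPM, without division by length, C1qa was 0.70 to 1.0 times C1qb. Most neighbours in the order per kilobase were not separated. In wild-type females the ranges of every pair of neighbours overlapped, whereas in wild-type males C1qa (6.89 ± 0.831 CPM per kb, SD, n = 3), C1qc (3.74 ± 0.127), Csf1r (3.15 ± 0.229) and C1qb (2.03 ± 0.244) stood in that order without overlap. Lyve1 was the lowest member in all 4 groups. The order changed most in knockout males, where F13a1 (4.18 ± 1.85 CPM per kb) and Mrc1 (3.50 ± 1.28) came directly after Csf1r (4.49 ± 0.807), although their ranges overlapped.

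**Figure D1:**
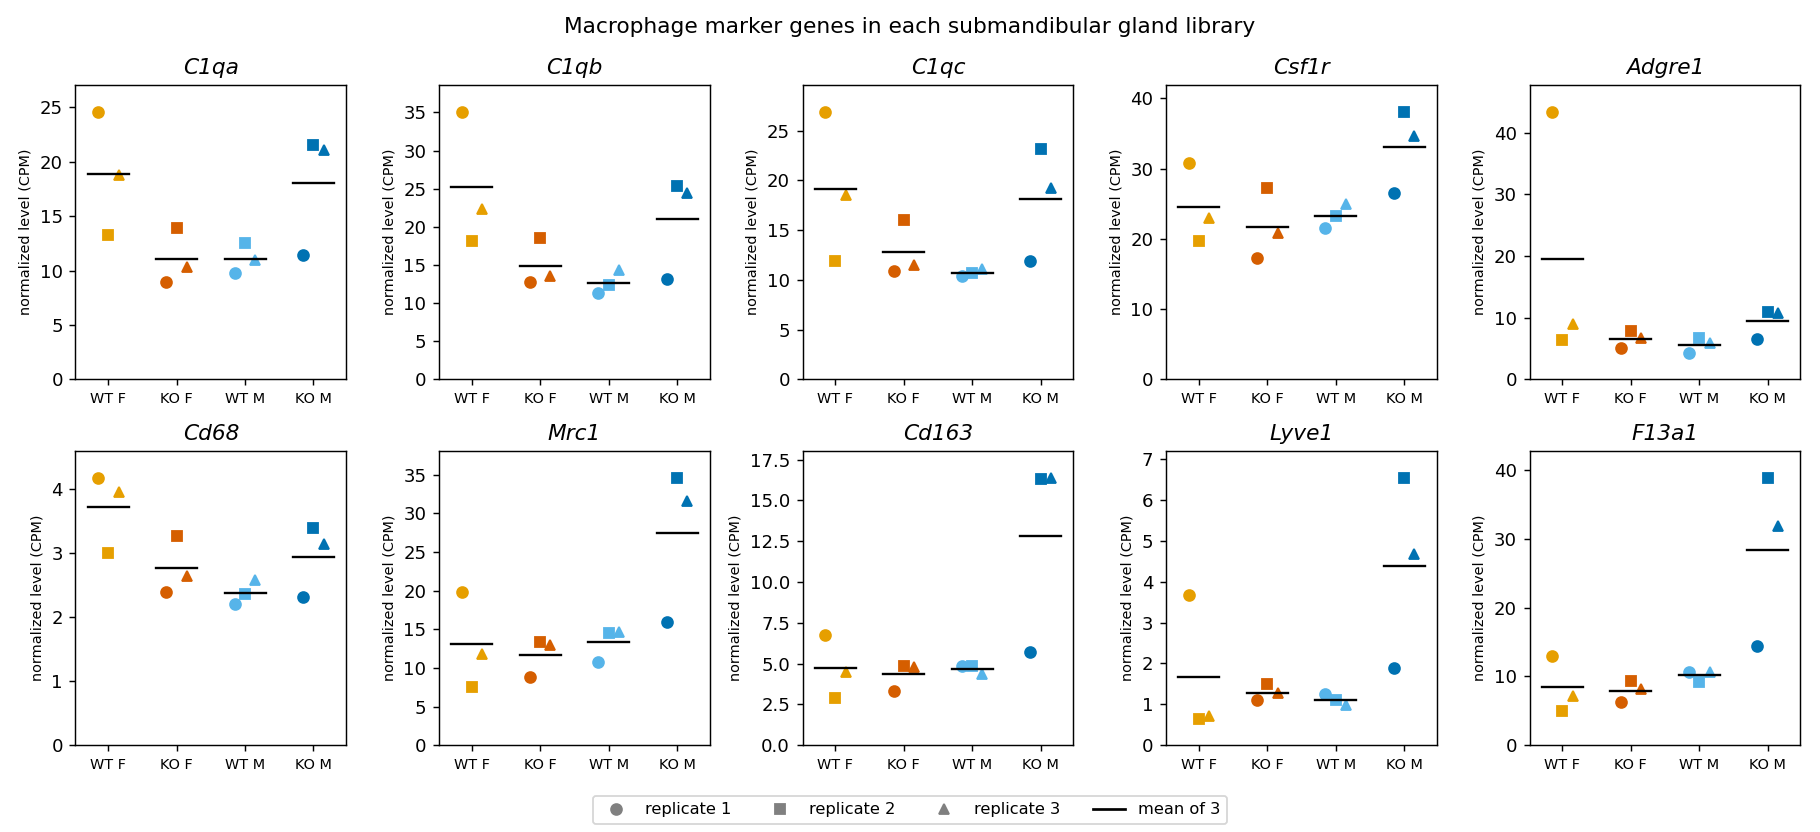
Level of each of the 10 genes in each library. The y axis is CPM on a linear scale from 0, the x axis gives the 4 groups (WT, wild type; KO, knockout; F, female; M, male), each point is 1 mouse with its shape giving the replicate number, and the bar is the mean of 3. Wild-type female 1 stands above the rest for Adgre1, and knockout males 2 and 3 stand above the rest for Mrc1, Cd163, Lyve1 and F13a1.

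Genotype was compared within each sex, and the question was whether glands of the TC-deficient line differed in macrophage transcripts. In females, 3 of 10 members fell in the knockout (C1qa, C1qb and Adgre1) and none rose, against 36.9% of all genes tested that were called and 19.3% called lower. Markers of other cell types fell in the same females. These were 2 of 4 adipocyte (median −3.28), 3 of 6 acinar, 3 of 4 myoepithelial, 1 of 6 blood endothelial and 1 of 2 skeletal muscle markers tested. Of 6 duct markers 1 rose and 1 fell, and 1 of 2 platelet markers rose. In males, 0 of 10 passed the test, against 0.235% of all genes, although the fitted change of all 10 was above 0. Thus 10 of 10 members were below 0 in females and above 0 in males, a pair of signs shared by 23.6% of all genes tested. Not all of the female signs held when 1 library was left out. The female difference then reached 0.22 for Mrc1, 0.18 for Cd163, 0.87 for Lyve1 and 0.32 for F13a1. The interaction of genotype and sex, which tests the difference between the sexes itself, was called for 7 of the 10 (C1qa, C1qb, C1qc, Adgre1, Cd163, Lyve1 and F13a1), against 25.7% of all genes tested and 12.4% called in the same direction. It was called in that direction for 4 of 4 adipocyte markers too (median −8.52). So were 1 of 4 mast cell, 1 of 6 fibroblast and 1 of 2 platelet markers tested. That platelet marker was Pf4, which resident macrophages also make. The part of these cell types was not tested here.

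**Figure D2:**
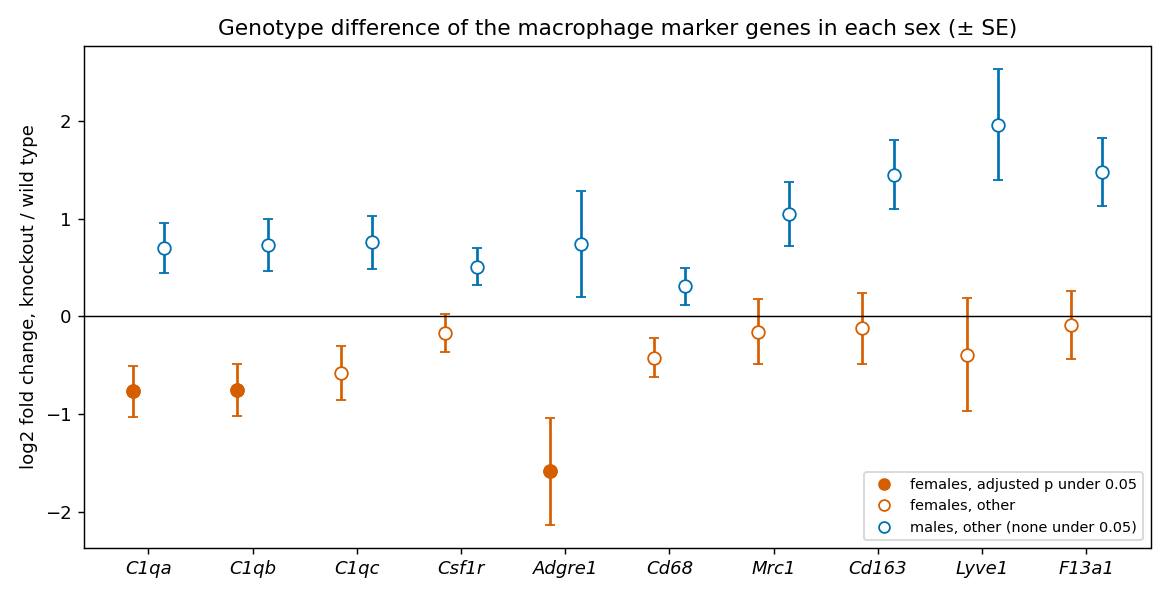
Log2 fold change of knockout against wild type for each gene, females and males side by side, with bars of 1 SE. Filled points have an edgeR adjusted p under 0.05. All 10 female values lie below the line at 0 and all 10 male values lie above it, with 3 female points filled and no male point filled. The female values of Mrc1, Cd163, Lyve1 and F13a1 changed sign in a fit that left out 1 library.

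Among the receptors, Csf1r encodes the receptor for the growth factors CSF1 and IL-34 that keep macrophages alive. It measured 30.8, 19.7 and 22.9 CPM in wild-type females and 17.2, 27.2 and 20.8 in knockout females. In males it measured 21.5, 23.2 and 24.9 CPM in wild type and 26.5, 38.1 and 34.6 in knockout. The female groups overlapped, and the male groups did not. The log2 fold change was −0.17 ± 0.191 (SE) in females (edgeR quasi-likelihood test with Benjamini-Hochberg adjustment, adjusted p = 0.51) and 0.51 ± 0.189 in males (adjusted p = 0.30), and the interaction was −0.68 ± 0.269 (adjusted p = 0.076). None of these passed the threshold of 0.05. Csf1r was also among the steadiest members, with an SD of log2 CPM of 0.338 over the 12 libraries, next to Cd68 at 0.306.

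C1qa, C1qb and C1qc encode the 3 chains of C1q, the recognition molecule of the classical complement pathway. C1qa measured 24.6, 13.3 and 18.8 CPM in wild-type females and 8.99, 13.9 and 10.3 in knockout females. It measured 9.80, 12.5 and 11.0 CPM in wild-type males, and knockout males had 11.4, 21.5 and 21.1. Both genotype comparisons overlapped, since knockout female 2 lay above wild-type female 2 and knockout male 1 lay among the wild-type males. C1qa fell in females by 0.77 ± 0.258 on the log2 scale (edgeR adjusted p = 0.033) and was 0.70 ± 0.256 higher in knockout males without passing the test (adjusted p = 0.29), and its interaction was −1.47 ± 0.363 (adjusted p = 0.014).

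C1qb followed the same libraries, at 35.1, 18.2 and 22.4 CPM in wild-type females, 12.7, 18.5 and 13.5 in knockout females, 11.3, 12.4 and 14.3 in wild-type males, and knockout males had 13.2, 25.4 and 24.5. It fell in females by 0.76 ± 0.265 on the log2 scale (edgeR adjusted p = 0.040), with an interaction of −1.49 ± 0.375 (adjusted p = 0.015). C1qc measured 26.9, 11.9 and 18.5 CPM in wild-type females, 10.9, 16.0 and 11.5 in knockout females, 10.4, 10.7 and 11.1 in wild-type males, and knockout males had 11.9, 23.2 and 19.2. Of the 3 chains, C1qc alone had male groups that did not overlap, and its female difference of −0.58 ± 0.275 did not pass the test (adjusted p = 0.12). The interaction of C1qc was −1.34 ± 0.388 (adjusted p = 0.026).

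Adgre1 encodes F4/80, a surface receptor used to mark mouse macrophages. It measured 43.4, 6.39 and 8.94 CPM in wild-type females and 5.11, 7.82 and 6.65 in knockout females. It measured 4.26, 6.73 and 5.84 CPM in wild-type males, and knockout males had 6.58, 10.9 and 10.7. A single library, wild-type female 1, held the highest value, and the other 11 libraries lay between 4.26 and 10.9 CPM, so the female groups overlapped. Adgre1 fell in knockout females by 1.59 ± 0.547 on the log2 scale (edgeR adjusted p = 0.037), with an interaction of −2.33 ± 0.767 (adjusted p = 0.041), but once wild-type female 1 was left out the female difference was −0.29 and the interaction −1.07.

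Cd68 encodes a lysosomal membrane protein of phagocytes and varied least over the 12 libraries. It measured 4.18, 3.01 and 3.96 CPM in wild-type females, 2.40, 3.27 and 2.64 in knockout females, 2.21, 2.36 and 2.58 in wild-type males, and knockout males had 2.31, 3.39 and 3.14. The groups overlapped in both sexes, and the differences of −0.42 ± 0.196 in females (edgeR adjusted p = 0.11) and 0.31 ± 0.194 in males (adjusted p = 0.59) did not pass the test.

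The scavenger and matrix-related members were higher in knockout males 2 and 3 than in any other library. Mrc1, the mannose receptor that takes up glycoproteins, measured 19.8, 7.52 and 11.8 CPM in wild-type females and 8.81, 13.4 and 12.9 in knockout females. In males it measured 10.8, 14.5 and 14.6 CPM in wild type and 16.0, 34.6 and 31.6 in knockout. The male groups did not overlap. The difference was −0.16 ± 0.331 in females (edgeR adjusted p = 0.74) and 1.05 ± 0.327 in males (adjusted p = 0.22).

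Cd163, the receptor that clears haemoglobin bound to haptoglobin, measured 6.75, 2.92 and 4.46 CPM in wild-type females, 3.34, 4.85 and 4.82 in knockout females, 4.85, 4.87 and 4.35 in wild-type males, and knockout males had 5.73, 16.3 and 16.4. Knockout male 1 lay just above the wild-type males, and the other two knockout males lay far above them. The difference was 1.45 ± 0.354 in males (edgeR adjusted p = 0.12) and −0.12 ± 0.362 in females (adjusted p = 0.82), and the interaction was −1.57 ± 0.505 (adjusted p = 0.038).

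F13a1 encodes the A subunit of coagulation factor XIII, a transglutaminase that crosslinks fibrin and matrix and is made by resident macrophages. It measured 13, 5.05 and 7.17 CPM in wild-type females, 6.31, 9.27 and 8.21 in knockout females, 10.7, 9.15 and 10.7 in wild-type males, and knockout males had 14.4, 38.9 and 31.8. The male groups did not overlap. The difference was 1.48 ± 0.345 in males (edgeR adjusted p = 0.11) and −0.09 ± 0.351 in females (adjusted p = 0.87), and the interaction was −1.56 ± 0.490 (adjusted p = 0.035).

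Lyve1, a hyaluronan receptor, was the sparsest member, with 27 to 403 counts per library. It measured 3.66, 0.651 and 0.704 CPM in wild-type females, 1.1, 1.49 and 1.27 in knockout females, 1.26, 1.11 and 0.984 in wild-type males, and knockout males had 1.90, 6.54 and 4.68. Lyve1 was 1.96 ± 0.572 higher on the log2 scale in knockout males (edgeR adjusted p = 0.20) and −0.39 ± 0.579 in females (adjusted p = 0.63), with an interaction of −2.36 ± 0.810 (adjusted p = 0.048). Wild-type female 1 held the highest Lyve1 level among females, and without it the female difference changed sign to 0.87 and the interaction was −1.14 and no longer called.

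The share of members called in females, 3 of 10, was near the share of all genes called. No member had female groups without overlap, against 24.1% of all genes lower and 25.2% higher without overlap. In males, where edgeR called no member, all but Adgre1 and Cd68 had an unadjusted p under 0.05, as had 2056 of the 17893 genes, and DESeq2 called 2 members, Cd163 and F13a1, against 2.41% of all genes it gave an adjusted p. Without overlap, 6 of 10 members (C1qc, Csf1r, Mrc1, Cd163, Lyve1 and F13a1) were higher in knockout males, against 6.51% of all genes. The median log2 fold change of the members was −0.41 in females and 0.75 in males, beside 0.03 and −0.04 over all genes tested.

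These calls depended on the processing and on single libraries. Under upper-quartile scaling no member was called in females, although calls over all genes did not fall, and a replicate block also left fewer members called. In females the count of members called was 0 without wild-type female 1, without knockout female 1 or without knockout female 3, where 7049, 5196 and 5288 of all genes were called, against 6611 with every library. It was 1 without wild-type female 3 (4925 genes), 2 without knockout female 2 (6420 genes) and 5 without wild-type female 2 (5648 genes). In males it was 6 without knockout male 1, the knockout male closest to wild type, and 0 without any other library. Over all genes, 658 were called in males without knockout male 1, against 42 with it. The interaction count of 7 became 2 without knockout female 1, knockout male 2, knockout male 3 or wild-type male 1, where 3425, 3229, 3018 and 2459 of all genes were called, against 4604 with every library. It became 3 without knockout female 3 (3513 genes) or wild-type male 3 (2948 genes). These falls went with fewer calls over all genes. The count also became 4 without wild-type female 1 or wild-type male 2, where calls over all genes rose to 5529 and 5371, and 10 without knockout male 1 (4758 genes) or wild-type female 2 (4313 genes).

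The design also compares the sexes within each genotype. Among wild-type mice, 5 members were lower in males (C1qa, C1qb, C1qc, Adgre1 and Cd68), against 16.0% of all genes called lower and 36.5% called in either direction. The log2 differences were −0.77 ± 0.257 for C1qa (edgeR adjusted p = 0.033), −0.99 ± 0.266 for C1qb (adjusted p = 0.011), −0.84 ± 0.275 for C1qc (adjusted p = 0.030), −1.81 ± 0.547 for Adgre1 (adjusted p = 0.020) and −0.64 ± 0.195 for Cd68 (adjusted p = 0.021). Of these, the 3 C1q genes and Cd68 had groups that did not overlap, against 20.9% of all genes lower without overlap. Csf1r, Mrc1, Cd163 and F13a1 differed by −0.08 ± 0.190, 0.02 ± 0.328, −0.01 ± 0.358 and 0.27 ± 0.347. The Adgre1 difference was −0.49 and no longer called without wild-type female 1. The count of 5 became 1 without wild-type female 1 or wild-type male 1, where 6455 and 5030 of all genes were called against 6523 with every library, and 2 without wild-type female 3 (5342 genes) or wild-type male 3 (5048 genes). Blood endothelial markers were lower in the same males, with 5 of 6 called and a median of −0.78. Their sum was 33.5 to 38.1 CPM in wild-type females and 18.9 to 22.1 CPM in wild-type males, and the C1q sum divided by it was 1.3 to 2.36 in wild-type females and 1.61 to 1.67 in wild-type males, with overlap. Adipocyte markers were lower in these males as well, with 4 of 4 called and a median of −4.92, and so were 2 of 4 mast cell markers and 4 of 6 acinar markers, whereas 4 of 4 myoepithelial and 3 of 6 duct markers were higher. With the adipocyte marker level as a covariate the count of 5 became 1, and calls over all genes fell as well. Across the alternatives other than leaving out a library, the differences nearest to 0 were −0.52 for C1qa, −0.83 for C1qb and −0.64 for C1qc. Those of Adgre1 and Cd68 were −1.37 and −0.42. The part of the other cell types in the C1q difference was not tested.

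Among knockout mice, 6 members were higher in males (C1qa, Csf1r, Mrc1, Cd163, Lyve1 and F13a1), against 23.2% of all genes called higher and 43.5% in either direction. F13a1 was 1.84 ± 0.352 higher on the log2 scale (edgeR adjusted p = 0.0011), Cd163 1.56 ± 0.359 (adjusted p = 0.0036), Mrc1 1.23 ± 0.330 (adjusted p = 0.0094) and Lyve1 1.76 ± 0.573 (adjusted p = 0.025). These 4 genes had groups that did not overlap, against 27.3% of all genes higher without overlap. Csf1r was 0.60 ± 0.190 higher (adjusted p = 0.021) and C1qa 0.70 ± 0.257 (adjusted p = 0.042). The count of 6 became 3 without knockout female 1, knockout male 2 or knockout male 3, where 6615, 6502 and 6220 of all genes were called, against 7790 with every library. Fibroblast markers were called higher in the same males (3 of 6, with all 6 above 0), as were adipocyte markers (3 of 4, median 3.61). So were platelet markers (2 of 2 tested, Itga2b and Pf4), duct markers (6 of 6) and myoepithelial markers (4 of 4). By contrast, 5 of 6 blood endothelial and 4 of 6 acinar markers were lower. With the adipocyte covariate the count of 6 became 1, and calls over all genes fell as well. Across the alternatives other than leaving out a library, the smallest differences were 1.62 for F13a1, 1.61 for Lyve1, 1.23 for Cd163 and 1.07 for Mrc1. Those of C1qa and Csf1r were 0.48 and 0.45. The part of the other cell types was not tested.

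The members did not vary as a block. The SD of the log2 ratio of C1qb to C1qc over the 12 libraries was 0.139, and that of C1qa to either was 0.153, although the level of each of these genes had an SD of 0.484 to 0.514. Another tight group was Cd163 with F13a1 (0.215) and Mrc1 with Cd163 (0.222). Lyve1 was loosest, with an SD of log2 CPM of 1.04, and the ratio of Cd68 to Lyve1 and that of Adgre1 to F13a1 each had an SD of 0.985. All of these are descriptions over libraries that share groups and scaling.

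**Figure D3:**
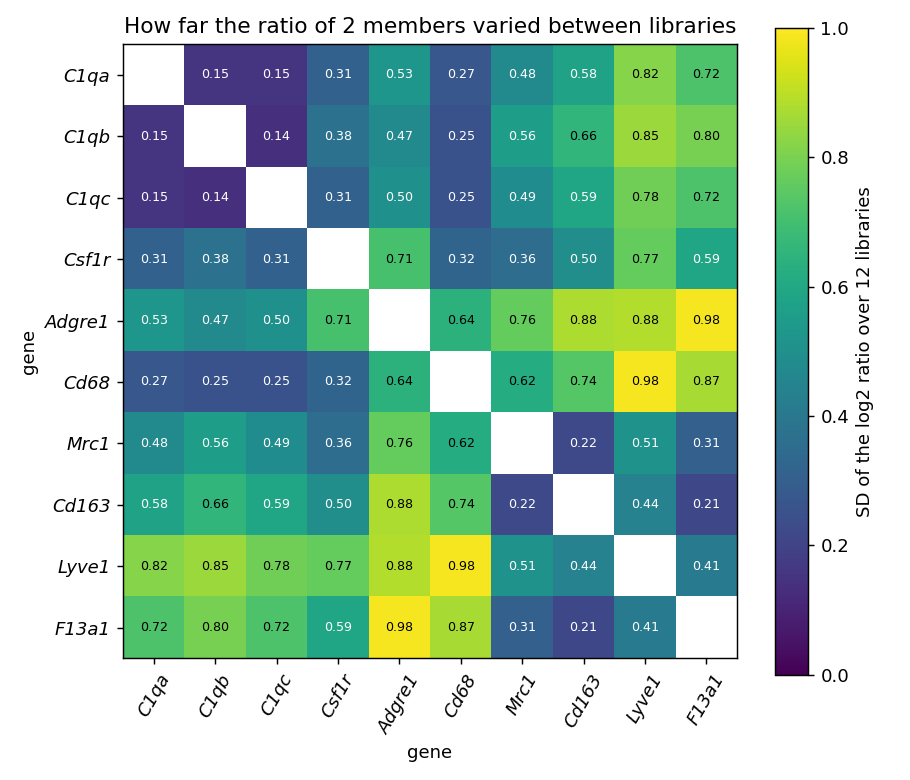
SD over the 12 libraries of the log2 ratio of each pair of members, on a colour scale from 0 to 1, with genes on both axes. A small SD means that the ratio was nearly constant. The lowest values are among the 3 C1q genes (0.139 to 0.153) and the highest are 0.985.

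The ratio of a pair of genes within a library does not depend on how libraries were scaled. The summed level of Mrc1, Cd163, Lyve1 and F13a1, divided by the summed level of the 3 C1q genes, was 0.499, 0.371 and 0.405 in wild-type females and 0.600, 0.599 and 0.770 in knockout females. It was 0.877, 0.833 and 0.842 in wild-type males, and knockout males had 1.04, 1.37 and 1.3. The 4 groups did not overlap, and in each sex all 3 knockout libraries were above all 3 wild-type libraries. The grouping of these 4 genes was chosen after their values were seen, so no test was made.

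For single genes, the ratios of Mrc1, Cd163 and F13a1 to the C1q sum were higher in knockout without overlap in both sexes. As these genes were picked after their values were seen, the shares below are descriptions and no test was made. Cd163 over the C1q sum was 0.0780, 0.0671 and 0.0747 in wild-type females and 0.102, 0.100 and 0.137 in knockout females, and it was 0.154, 0.137 and 0.120 in wild-type males, and knockout males had 0.157, 0.233 and 0.254. Over all genes tested except the 3 C1q genes, 36.6% had a higher ratio to the C1q sum without overlap in knockout females, 1.08% in knockout males and 0.386% (69 of 17890) in both. Mrc1, Cd163 and F13a1 are themselves counted in these shares. Of 13 other genes of interstitial resident macrophages, 3 did so in both sexes (Ccl24, Cd209g and Folr2). Lyve1 did so in males and not in females.

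The denominator mattered. Relative to Csf1r, the same sum was 0.819 to 1.40 in wild-type females and 1.07 to 1.31 in knockout females, which overlapped, and 1.23 to 1.28 in wild-type males against 1.44 to 2.53 in knockout males, which did not. Relative to Cd68 it was 5.37 to 10.3 in wild-type females and 8.16 to 10.3 in knockout females, again with overlap, and 11.9 to 12.6 against 16.5 to 28.4 in males.

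**Figure D4:**
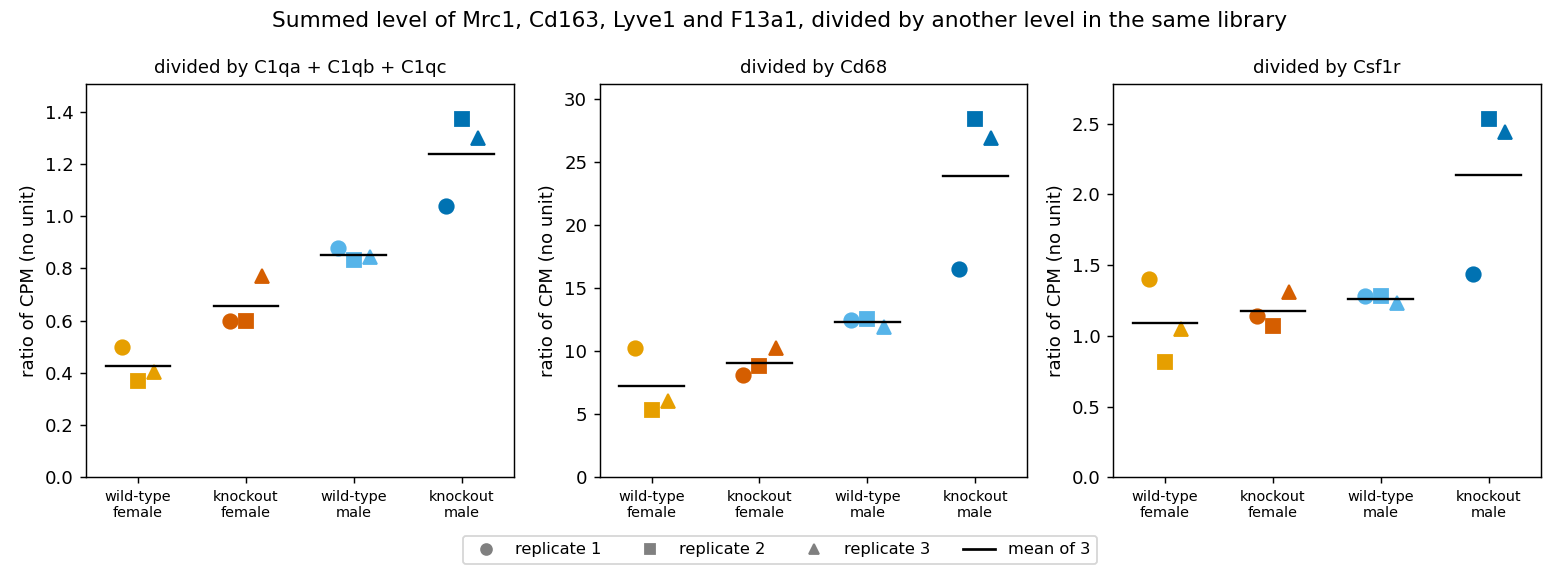
Summed CPM of Mrc1, Cd163, Lyve1 and F13a1 divided by the summed CPM of the 3 C1q genes (left), by Cd68 (middle) or by Csf1r (right), on linear axes without unit that start at 0. Each point is 1 mouse, its shape gives the replicate number, and the bar is the mean of 3. In the left panel the groups rise from 0.371 to 0.499 in wild-type females to 1.04 to 1.37 in knockout males without overlap, while in the other panels the female groups overlap.

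Other cell types moved with the same libraries. The 4 adipocyte markers summed to 3.73, 57.0 and 34.9 CPM in knockout males 1, 2 and 3, against 1.51 to 1.70 in wild-type males. The sum was 3.73, 10.1 and 78.1 CPM in wild-type females and 2.51 to 6.56 in knockout females. Thus knockout males 2 and 3, with the highest Mrc1, Cd163, Lyve1 and F13a1, were rich in adipocyte transcripts, whereas wild-type female 1, with the highest C1q and Adgre1, was not, and wild-type female 3 was adipocyte-rich with a sum of the 4 scavenger and matrix members of 24.2 CPM.

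With the adipocyte level as a covariate, an alternative chosen after the data were seen, the interaction count fell from 7 to 0, the female count from 3 to 1, the wild-type sex count from 5 to 1 and the knockout sex count from 6 to 1. The interaction of C1qa was then −0.998 and that of F13a1 −1.14. The covariate took calls from the whole transcriptome and not from the macrophage genes alone, since 1 of 17893 genes was called for the interaction with it, against 4604 without it, and 4724 against 6611 in females. Calls over all genes between the sexes also fell, in wild type and in knockout. The sizes of the members' sex differences across the alternatives are given above with those comparisons.

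**Figure D5:**
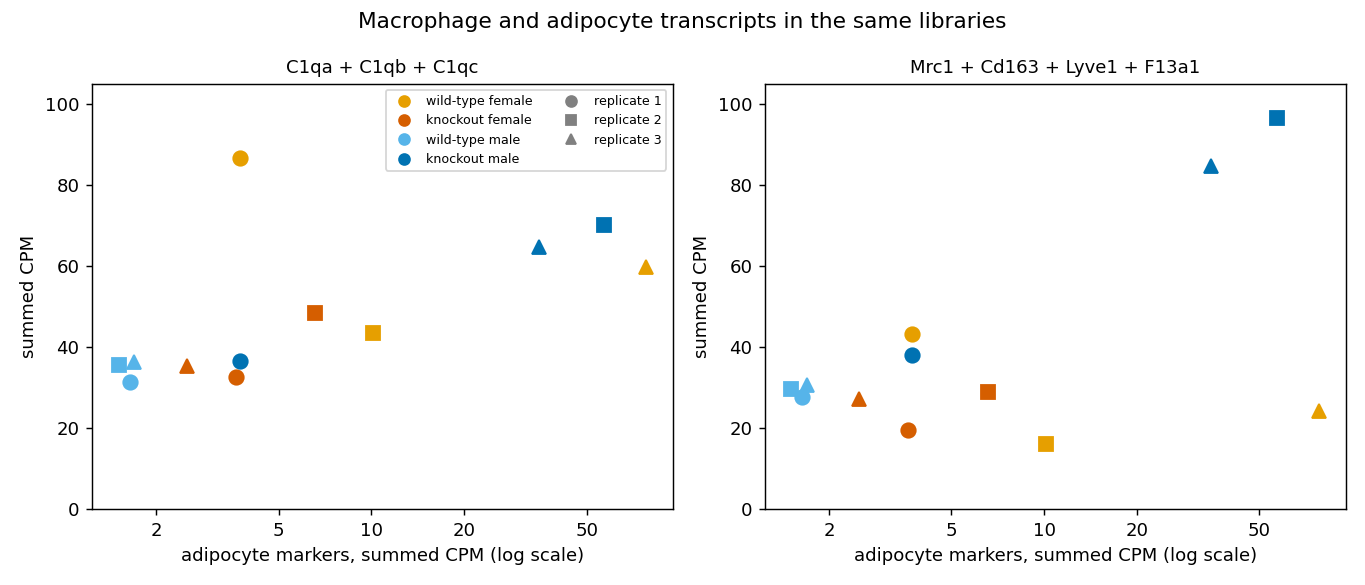
Summed CPM of the 3 C1q genes (left) and of Mrc1, Cd163, Lyve1 and F13a1 (right), on linear axes from 0, against the summed CPM of 4 adipocyte markers on a log axis. Each point is 1 library, coloured by group and shaped by replicate number. Knockout males 2 and 3 lie at 57.0 and 34.9 CPM of adipocyte markers with the highest scavenger and matrix sums, and wild-type female 1 lies at 3.73 with the highest C1q sum.

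Fibroblast transcripts also stood apart in these males. The 6 fibroblast markers summed to 414, 750 and 589 CPM in knockout males against 328 to 372 in wild-type males, and 6 of 6 were highest in knockout male 2. One of them, Dpt, which encodes a matrix protein, rose in knockout males by 1.84 ± 0.285 on the log2 scale (edgeR adjusted p = 0.017), a call kept in 1 of the 6 fits that left out a male library, in which the difference ran from 1.44 to 2.07. The mast cell markers summed to 1.02 to 2.66 CPM in knockout males and 0.314 to 0.554 in wild-type males. Of the 4 tested, 0 were called, against 0.235% of all genes. The part of these cell types in the differences of the macrophage genes was not tested. Nor was the adipocyte covariate such a test, since the adipocyte sums of the male groups did not overlap. They were 1.51 to 1.70 CPM in wild-type males and 3.73 to 57.0 CPM in knockout males.

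For Lyve1, the 6 lymphatic endothelial markers summed to 15.9 to 22.7 CPM in knockout males and 16.6 to 17.8 in wild-type males. In either sex 0 of 6 were called, against 36.9% of all genes in females and 0.235% in males. In females the sum was 17.4, 7.76 and 10.2 CPM in wild type and 11.6 to 15.5 CPM in knockout, so wild-type female 1, the highest female library for Lyve1, was also the highest for these markers. The markers did not move together in males. Prox1, the transcription factor that defines lymphatic endothelium, differed by 0.10 ± 0.310 in males (edgeR adjusted p = 0.94) and Reln by −0.32 ± 0.234 (adjusted p = 0.66). Ccl21a, a chemokine of lymphatic vessels, measured 2.07, 1.90 and 1.63 CPM in wild-type males, and knockout males had 1.92, 3.28 and 3.58 (0.65 ± 0.456, adjusted p = 0.64). Mmrn1 measured 1.68, 2.00 and 1.1 CPM in wild-type males, and knockout males had 1.55, 3.57 and 2.59 (0.69 ± 0.469, adjusted p = 0.63). Knockout males 2 and 3, the highest for Lyve1, were thus also the highest males for Ccl21a and Mmrn1, and the part of lymphatic endothelium in the Lyve1 levels was not tested. For F13a1, the 6 platelet markers summed to 3.13 to 7.22 CPM in knockout males and 1.41 to 2.03 in wild-type males. Most of that sum was Pf4 and Itga2b, at 3.62 and 3.28 CPM in knockout male 2, the library with 7.22 CPM. Gp9 had at most 6 counts in any library, and Gp1bb and Treml1 at most 4, so these markers were too sparse to show a difference. Of these markers 2 were tested, Itga2b and Pf4, and Pf4 is also made by resident macrophages. Itga2b, an integrin subunit of platelets, measured 0.532 to 0.895 CPM in wild-type males and 1.57 to 3.28 CPM in knockout males, without overlap (1.81 ± 0.436, edgeR adjusted p = 0.12), and it rose in knockout females by 1.64 ± 0.492 (adjusted p = 0.020, or 1.14 and not called without wild-type female 1), where F13a1 did not pass the test. The part of platelets in the F13a1 levels was not tested.

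Other genes of the lineage were counted from lists. Of 16 other pan-macrophage genes, 6 fell in knockout females (Ctss, Fcer1g, Itgam, Laptm5, Itgb2 and Cybb) and 1 rose (Mertk), so that 7 of 16 were called against 36.9% of all genes, and 6 of 16 lower against 19.3%. Without wild-type female 1 only Ctss (−0.57) among the 6 was still called, since Itgam turned to 0.04 and Itgb2 was −0.27, Fcer1g −0.48, Laptm5 −0.38 and Cybb −0.37. None of the 16 was called in males, against 0.235% of all genes, and their median there was 0.60. The interaction was called for 9, of which 8 were below 0, against 25.7% of all genes called and 12.4% below 0. The exception was Mertk, at 1.04 ± 0.141 (edgeR adjusted p = 0.0027), and those below 0 included Fcgr1, an Fc receptor (−1.48 ± 0.426, edgeR adjusted p = 0.025), Msr1, a scavenger receptor (−1.80 ± 0.485, adjusted p = 0.019), and Lyz2, a lysozyme (−2.16 ± 0.607, adjusted p = 0.023). Lyz2 also leaned on wild-type female 1, with 116 CPM there and 26.9 and 47.2 CPM in wild-type females 2 and 3. Fcgr1 itself was −0.56 ± 0.305 in females (adjusted p = 0.17) and 0.93 ± 0.297 in males (adjusted p = 0.23). Mertk, a receptor for the uptake of dying cells, rose in knockout females by 0.97 ± 0.102 (edgeR adjusted p = 0.00013), from 5.74 to 6.17 CPM to 10.6 to 13 CPM, and in males its wild-type and knockout ranges overlapped. Ctss, which encodes cathepsin S, fell by 0.77 ± 0.220 (adjusted p = 0.015). Itgam, the integrin subunit CD11b, had 35.3 CPM in wild-type female 1 and 2.27 to 5.50 CPM in the other 11 libraries, and 11 of the 16 genes had their highest value in wild-type female 1.

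Of 13 tested genes of interstitial resident macrophages, 11 had their highest value in knockout male 2. Their median log2 fold change was 1.28 in males, with 0 called, against 0.235% of all genes. In females the median was 0.02, with Cbr2 and Ccl8 lower, against 19.3% of all genes. Neither was called without wild-type female 1, at −0.43 for Cbr2 and −0.95 for Ccl8. Timd4, a receptor for dying cells, differed by 0.85 ± 0.563 in females (edgeR adjusted p = 0.26) and 0.73 ± 0.521 in males (adjusted p = 0.64). Folr2, a folate receptor of these cells, measured 0.904, 0.995 and 1.08 CPM in wild-type males, and knockout males had 1.53, 3.75 and 2.48 (1.38 ± 0.358, edgeR adjusted p = 0.15). The interaction was called for 3 of the 13, all below 0, against 25.7% of all genes called and 12.4% called below 0. Ccl8, a chemokine, had an interaction of −3.13 ± 0.584 (adjusted p = 0.0048), Pf4 −1.57 ± 0.469 (adjusted p = 0.029) and Cbr2 −1.06 ± 0.284 (adjusted p = 0.019). The male groups of Pf4 did not overlap, at 0.745 to 1.08 CPM in wild type and 1.44 to 3.62 CPM in knockout, and neither did those of Ccl8, at 0.284 to 0.412 and 0.645 to 1.82 CPM. The male groups of Cbr2 overlapped, at 10.2 to 11.3 CPM in wild type and 10.6 to 18.2 CPM in knockout.

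No rise in the growth factors that act on the receptor encoded by Csf1r passed the test. Csf1 differed by −0.20 ± 0.104 in females (edgeR adjusted p = 0.15) and −0.18 ± 0.103 in males (adjusted p = 0.55). Il34 fell in knockout females by 0.39 ± 0.119 (adjusted p = 0.021) and was −0.49 ± 0.116 in males without passing the test (adjusted p = 0.12). In males Il34 measured 8.71 to 9.45 CPM in wild type and 5.92 to 7.04 in knockout, without overlap.

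Of 9 lineage transcription factors, Runx1 rose in knockout females by 0.52 ± 0.145 (edgeR adjusted p = 0.014) and none was called in males, and the interaction was called for Cebpa (−0.89 ± 0.226, adjusted p = 0.015). Over all genes, 36.9% were called in females, 0.235% in males and 25.7% for the interaction. Irf8 differed by 0.04 ± 0.188 in females (adjusted p = 0.88) and 0.21 ± 0.176 in males (adjusted p = 0.71). Spi1, which encodes PU.1, measured 8.42, 1.41 and 2.61 CPM in wild-type females, so wild-type female 1 was again the highest library, and 1.70, 2.40 and 1.67 in knockout females. Between the wild-type sexes, 3 of the 9 were higher in males and 4 were lower, against 36.5% of all genes called in either direction and 16.0% called lower. Maf, which is also made outside macrophages, was 2.68 ± 0.256 higher in males (adjusted p = 5e-06). The 4 that were lower, as the C1q genes were, were Spi1 (−1.68 ± 0.536, adjusted p = 0.026), Cebpa (−0.68 ± 0.160, adjusted p = 0.0051), Mitf (−0.75 ± 0.141, adjusted p = 0.0011) and Zeb2 (−0.91 ± 0.324, adjusted p = 0.042). Without wild-type female 1, Spi1 was −0.67 and Zeb2 −0.47 and neither was called, while Cebpa and Mitf were called with any 1 wild-type library left out.

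Among the partners of C1q in the classical pathway, 0 of 6 were called in females or males, against 36.9% and 0.235% of all genes. The interaction was called for C4b (−1.49 ± 0.434, edgeR adjusted p = 0.027) and C3 (−1.80 ± 0.422, adjusted p = 0.011), against 25.7% of all genes called and 12.4% called below 0. C3, the central complement protein, measured 15.6, 19.8 and 13.9 CPM in wild-type males, and knockout males had 27.6, 61.5 and 54.0, without overlap. C1ra and C1s1, the proteases carried by C1q, differed by 0.53 ± 0.194 and 0.62 ± 0.193 in males (adjusted p = 0.29 and 0.22).

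Of 8 genes for haemoglobin and iron handling, the pathway of CD163, 2 fell in knockout females (Ftl1 and Blvrb), against 19.3% of all genes called lower, and 0 were called in males, against 0.235%. Without wild-type female 1 Blvrb was −0.28 and no longer called. Ftl1, a ferritin chain, fell by 0.51 ± 0.146 in females (edgeR adjusted p = 0.016), and Hmox1, the haem-degrading enzyme, had an interaction of −1.19 ± 0.362 (adjusted p = 0.032), as had Fth1, the other ferritin chain, of −0.84 (adjusted p = 0.023). Hp, the haptoglobin whose complex with haemoglobin CD163 takes up, differed by −1.07 ± 0.408 in females (adjusted p = 0.055) and −0.04 ± 0.398 in males (adjusted p = 0.98). Of 8 lysosomal genes, 7 fell in knockout females (Lamp1, Lamp2, Ctsb, Ctsd, Ctsl, Gusb and Hexa), against 19.3% of all genes called lower, and each of the 7 was called with any 1 female library left out. In males 0 were called, where the median was −0.001. Lamp1 fell by 0.84 ± 0.151 in females (adjusted p = 0.0012), with 108 to 154 CPM in wild type and 67.6 to 79.9 in knockout. Lysosomes belong to all cells of the gland, and the part of each cell type in these differences was not tested.

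Of 8 genes of MHC class II macrophages, 1 fell in knockout females, against 19.3% of all genes called lower. This was Cx3cr1, the fractalkine receptor (−0.89 ± 0.303, edgeR adjusted p = 0.036). It had 23.7 CPM in wild-type female 1 and 6.34 to 9.36 CPM in the other 11 libraries, and without that library the difference was −0.31 and no longer called. Cd74, the invariant chain, differed by −0.03 ± 0.212 in females (adjusted p = 0.94) and 0.36 ± 0.212 in males (adjusted p = 0.56). Of 5 tested monocyte and inflammatory genes, 0 were called in either sex, against 36.9% of all genes in females and 0.235% in males. Ccr2, a chemokine receptor of monocytes, had an interaction of −1.29 ± 0.443 (adjusted p = 0.048). Of 7 tested genes for hyaluronan, the ligand of LYVE1, Cd44 fell in knockout females by 0.81 ± 0.166 (adjusted p = 0.0026) and Stab2 rose by 1.25 ± 0.433 (adjusted p = 0.038), a call lost with any 1 female library left out, and 0 were called in males. The shares of all genes called were 36.9% in females, 0.235% in males and 25.7% for the interaction. The interaction was called for Stab2 (2.42 ± 0.615, adjusted p = 0.015) and Hyal1 (0.78 ± 0.261, adjusted p = 0.043), and Has2, a hyaluronan synthase, was −0.49 ± 0.301 in females (adjusted p = 0.22) and 0.57 ± 0.293 in males (adjusted p = 0.49).

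Some genes outside the list had nearly the same profile as a member. Closest to the mean log2 CPM of the 3 C1q genes were Gng2, Naaa, Fli1, Tyrobp and Ptger4, whose log2 difference from it had an SD of 0.177 to 0.191 over the 12 libraries, when the C1q mean itself had an SD of 0.490. Closest to Csf1r were Pmp22, Ahnak, Chsy1, Itpripl2 and Hacd4 (0.116 to 0.133). For Adgre1, chosen for this after its values were seen, those close to it included C3ar1, Coro1a, Itgb2 and Cd53 (0.152 to 0.267), and C3ar1, a complement receptor, measured 26.1 CPM in wild-type female 1 and 2.83 to 7.05 CPM in the other libraries. For F13a1, likewise chosen afterwards, they were the matrix and surface genes Mfap5, Emp1, Lox and Fn1, and Clec4n, a lectin of macrophages (0.300 to 0.329).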

How the data were processed

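Bulk RNA was measured in 12 submandibular glands, from stranded libraries after removal of ribosomal RNA per the study's methods, while the labels name polyadenylated RNA. The authors deposited estimated counts per gene made with Salmon 1.10.1 against Gencode M35 transcripts (GRCm39), and a second table of normalized signal in which the authors divided each count by a factor that differs between genes and libraries and whose making is not given in the sources used here. These estimates were rounded, then scaled by TMM in edgeR 4.0.16 (R 4.3.3), and filterByExpr kept 17893 of 56065 genes. The quasi-likelihood fit took all 12 libraries together, gave each group its own mean, and adjusted p over all genes tested in a contrast by Benjamini-Hochberg (threshold 0.05). SE is the size of a log2 fold change over the root of its F statistic. The log2 CPM had a prior count of 2. Total counts per library were 47032175 to 67882207, and 3 counts, the limit that a count of 0 allows, were 0.0399 to 0.0782 CPM, for counting error only. Positions, exon lengths and symbols came from Gencode M39, which held 55563 of the identifiers.

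The 10 members and the other lists were chosen with earlier results of these data known. Named genes are the members, the 2 genes listed first, where they passed the filter, and up to 4 called genes of each list of macrophage or pathway genes, and the 5 protein-coding genes nearest to the C1q mean and to Csf1r; the rule was also written for the markers of other cell types, which are given mostly by counts and sums. Other genes named, such as those highest in a library, were picked after their values were seen. Counting by strand is not stated, and Csf1r, Mrc1, Cd163 and F13a1 overlap other annotated genes. Alternatives were RLE and upper-quartile scaling, scaling without the 20 most abundant genes or on protein-coding genes, no filter, a minimum of 10 counts in every library, fitting sexes or genotypes apart, DESeq2 1.42.0, limma 3.58.1 on log2(signal + 1), a replicate block, each library left out, and an adipocyte covariate chosen after seeing the data. The study's methods name DESeq2. The steps were tested on simulated data. Figures used Python 3.11.15 and matplotlib 3.10.9.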

Additional observations from a re-analysis of the deposited data

Results flagged for a closer look

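The genotype effects of 7 members differed between the sexes by the interaction term of the edgeR model, and each is given here as the log2 fold change in females minus that in males. The values were −1.47 for C1qa, −1.49 for C1qb, −1.34 for C1qc, −2.33 for Adgre1, −1.57 for Cd163, −2.36 for Lyve1 and −1.56 for F13a1. Leaving out each library in turn, they ran from −1.75 to −1.32 for C1qa, −1.75 to −1.27 for C1qb, −1.66 to −1.10 for C1qc, −2.82 to −1.07 for Adgre1, −1.93 to −1.31 for Cd163, −2.81 to −1.14 for Lyve1 and −1.91 to −1.20 for F13a1, and the value nearest to 0 for Adgre1 and for Lyve1 came without wild-type female 1. With the adipocyte marker level as a covariate, 0 of these 7 calls were left, as was the case for nearly all genes, with 1 of 17893 called. Groups of 3 mice were not searched for outlying samples.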

How the results depend on the processing

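Of the alternatives other than leaving out a library, 466 results kept their direction and side of the threshold, 46 lost their call, 12 gained one and 16 changed sign. The values below are counts of members called or log2 fold changes, and where no reason is given the cause was not tested. The number of all genes called under the same setting follows in parentheses. Counts in females were 0 under upper-quartile scaling (6641), 1 with the adipocyte covariate (4724) and 1 with the replicate block (6349), against 6611 genes without these. In males the count was 4 with no filter (389, or 1.26%) and 2 with DESeq2 (406, or 2.41%), against 42. The interaction count was 3 with the replicate block (4354), 3 with limma (4187) and 0 with the adipocyte covariate (1), against 4604. The covariate also gave 1 for the sexes in wild type (3630) and 1 in knockout (5501). No source says that the replicate numbers pair mice, and the correlations of same-numbered libraries, −0.11 to 0.05 in females and −0.13 to 0.09 in males, gave no sign of pairing. Upper-quartile scaling moved the median of all genes to 0.13 in females and to −0.18 between knockout sexes, and scaling on protein-coding genes moved the latter to −0.11.

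Leaving out each library gave 0 to 5 members called in females, 0 to 6 in males, 2 to 10 for the interaction, 1 to 5 for the sexes in wild type and 3 to 8 in knockout. The female difference then ran from −0.47 to 0.22 for Mrc1, −0.41 to 0.18 for Cd163, −0.81 to 0.87 for Lyve1 and −0.39 to 0.32 for F13a1. The wild-type sex difference ran from −0.24 to 0.084 for Csf1r, −0.28 to 0.42 for Mrc1, −0.28 to 0.31 for Cd163, −0.99 to 0.69 for Lyve1 and −0.006 to 0.70 for F13a1, and the knockout sex difference of Cd68 from −0.025 to 0.28.

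The sign changes concerned small differences that had passed no test. In females they were Csf1r 0.16 and Lyve1 0.13 with limma, Cd163 0.054 and F13a1 0.019 with the adipocyte covariate, and F13a1 0.015 under upper-quartile scaling. Between wild-type sexes they were Csf1r 0.018 and Cd163 0.32 with the adipocyte covariate, Cd163 0.15 with limma, and Mrc1 at −0.021 with RLE, −0.064 under upper-quartile scaling, −0.002 without the 20 most abundant genes, −0.022 with the replicate block and −0.018 with DESeq2. Between knockout sexes they were Cd68 −0.071 under upper-quartile scaling, −0.093 with the adipocyte covariate and −0.053 with limma. Depth limits Lyve1 most, with 27 counts in its lowest library.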

Other observations

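Of 7 tested genes for the synthesis and turnover of hyaluronan, which LYVE1 binds, 1 rose and 1 fell in knockout females and 0 were called in males. Over all genes, 36.9% were called in females and 0.235% in males. Cd44, a hyaluronan receptor of many cell types, fell in knockout females by 0.81 ± 0.166 on the log2 scale (edgeR adjusted p = 0.0026), and Stab2, a clearance receptor with 6 to 30 counts per library, rose there by 1.25 ± 0.433 (adjusted p = 0.038). The Stab2 call was lost with any 1 female library left out. Of 7 dendritic cell markers, 0 were called in either sex, and their sum was 4.02 to 8.91 CPM in knockout males against 3.40 to 4.17 in wild-type males. Cx3cr1, a chemokine receptor of macrophages, fell in knockout females by 0.89 ± 0.303 (adjusted p = 0.036), with 23.7 CPM in wild-type female 1 and 6.34 to 9.36 CPM in the other libraries. It was no longer called without wild-type female 1. Ccr2, a monocyte receptor, had an interaction of −1.29 ± 0.443 (adjusted p = 0.048). Il6 had 0 counts in all 12 libraries.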
